A study of Homo sapiens with 4 samples.

Results

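H19, the growth factor gene IGF2, the receptor genes IGF1R and IGF2R, and IGFBP2 to IGFBP7, which encode proteins that bind insulin-like growth factors (IGFs), are the 10 human genes described here, of 36601 human genes counted. They were found by symbol among the human features. The list was drawn up with the CPM ratios between these libraries known and counts as selected on them, so the values are descriptions and no test was made. In the mouse RNA of the same libraries, 12 genes (H19, Igf1, Igf2, Igf1r, Igf2r and Igfbp1 to Igfbp7) were set beside them, of 32285 mouse genes counted. All 4 groups were subcutaneous tumours of PANC-1, a human pancreatic ductal adenocarcinoma line, in nude mice, which lack a thymus but keep innate immune cells and fibroblasts. The groups were agrimoniin (an ellagitannin of agrimony plants), erlotinib (a drug that blocks the EGFR kinase), the combination of agrimoniin with erlotinib, and control, with 1 single-cell RNA library each. The design text gives the control a carrier and has "cyranin" in place of erlotinib, and the sample labels were followed. The labels give no dose, time, age of the mice or number of tumours per library, so each comparison is between 2 libraries and has no replicate check.

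IGF1 and IGF2 are secreted ligands that signal through the IGF1R tyrosine kinase, while IGF2R carries IGF2 to lysosomes. The IGF-binding proteins hold these ligands outside the cell and lengthen their life or keep them from the receptor, and proteases such as PAPPA cut some of them and free the ligand. H19 is a long noncoding RNA next to IGF2. In normal tissue the maternal copy of H19 and the paternal copy of IGF2 are active, and CTCF bound at a shared imprinting control region keeps them apart.

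H19 lies on chromosome 11 from 1995176 to 2001470 (minus strand, GRCh38, GENCODE 29), and IGF2 lies 127642 bases further along the chromosome, from 2129112 to 2149603 on the same strand. IGFBP2 (chromosome 2, 216632828 to 216664436, plus strand) and IGFBP5 (chromosome 2, 216672105 to 216695525, minus strand) are neighbours with a gap of 7669 bases, and IGFBP4 lies on chromosome 17 from 40443461 to 40457731. H19 contains the hairpin of the microRNA miR-675, so both mature microRNAs are shown from RefSeq (GRCh38.p14), with the seed, bases 2 to 8, in capitals. Mature microRNAs were not measured by these libraries, and H19 counts are counts of the host RNA.
miR-675-5p: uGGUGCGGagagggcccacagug
miR-675-3p: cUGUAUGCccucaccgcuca
The promoters of H19, IGFBP4 and IGFBP5, the members whose levels differed most between libraries, are given as the 250 bases before the RefSeq start (GRCh38.p14), on the gene's own strand.
H19, chr11:2001267-2001516, minus strand: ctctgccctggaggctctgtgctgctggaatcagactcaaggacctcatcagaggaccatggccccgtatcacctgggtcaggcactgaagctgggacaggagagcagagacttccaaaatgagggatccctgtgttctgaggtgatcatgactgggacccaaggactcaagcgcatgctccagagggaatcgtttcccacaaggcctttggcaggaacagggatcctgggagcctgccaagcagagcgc
IGFBP4, chr17:40443200-40443449, plus strand: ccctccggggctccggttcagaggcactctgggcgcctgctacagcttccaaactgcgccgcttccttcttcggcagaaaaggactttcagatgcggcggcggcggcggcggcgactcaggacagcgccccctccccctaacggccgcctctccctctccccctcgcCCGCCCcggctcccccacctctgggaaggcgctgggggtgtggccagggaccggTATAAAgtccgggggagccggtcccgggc
IGFBP5, chr2:216695550-216695799, minus strand: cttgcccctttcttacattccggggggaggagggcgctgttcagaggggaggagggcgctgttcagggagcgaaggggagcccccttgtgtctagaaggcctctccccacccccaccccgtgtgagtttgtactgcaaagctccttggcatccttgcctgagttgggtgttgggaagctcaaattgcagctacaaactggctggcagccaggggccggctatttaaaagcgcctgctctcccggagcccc
Capitals mark matches, searched on both strands, to the TATA box TATAAA, the GC box GGGCGG, the FOXO core GTAAACA and the E-box CACGTG, none of which overlap. The IGFBP4 promoter has TATAAA starting at position -29 from the RefSeq start, and at position -83 the GC box as read on the other strand, CCGCCC. Of 35116 RefSeq promoters, each searched over its 250 bases before the start, 10.7% hold TATAAA, 42.6% hold the GC box, 2.98% hold GTAAACA and 6.34% hold CACGTG. None of the 4 motifs is in the windows of H19 and IGFBP5. The windows were 58.0% G or C for H19, 71.6% for IGFBP4 and 61.2% for IGFBP5. The RefSeq start of H19 lies inside the gene as GENCODE draws it, so its window overlaps that annotation.

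Every barcode held UMIs (unique molecules) of both species. A barcode's UMIs from human genes are called its human part and those from mouse genes its mouse part; whether a part came from 1 cell is not known. Human parts numbered 283, 292, 245 and 193 for agrimoniin, erlotinib, combination and control, with 3690705, 3775711, 3109510 and 2420470 human UMIs. Their median depth was 11586 to 12653 UMIs, and no barcode was shared between libraries. The human share of all UMIs was 73.9% with agrimoniin, 73.8% with erlotinib, 77.9% with the combination and 68.5% in control, and the median mitochondrial share was 8.97% to 10.1%. Among PANC-1 markers, VIM stood at 5609 to 6272 CPM (counts per 1e6 human UMIs) and KRT8 at 36.0 to 49.2 CPM. EPCAM stood at 18.2 to 25.2 CPM, and KRT19 had at most 0.530 CPM. No class of human parts is known to lack these genes, so a background from free RNA could not be measured.

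**Figure D1:**
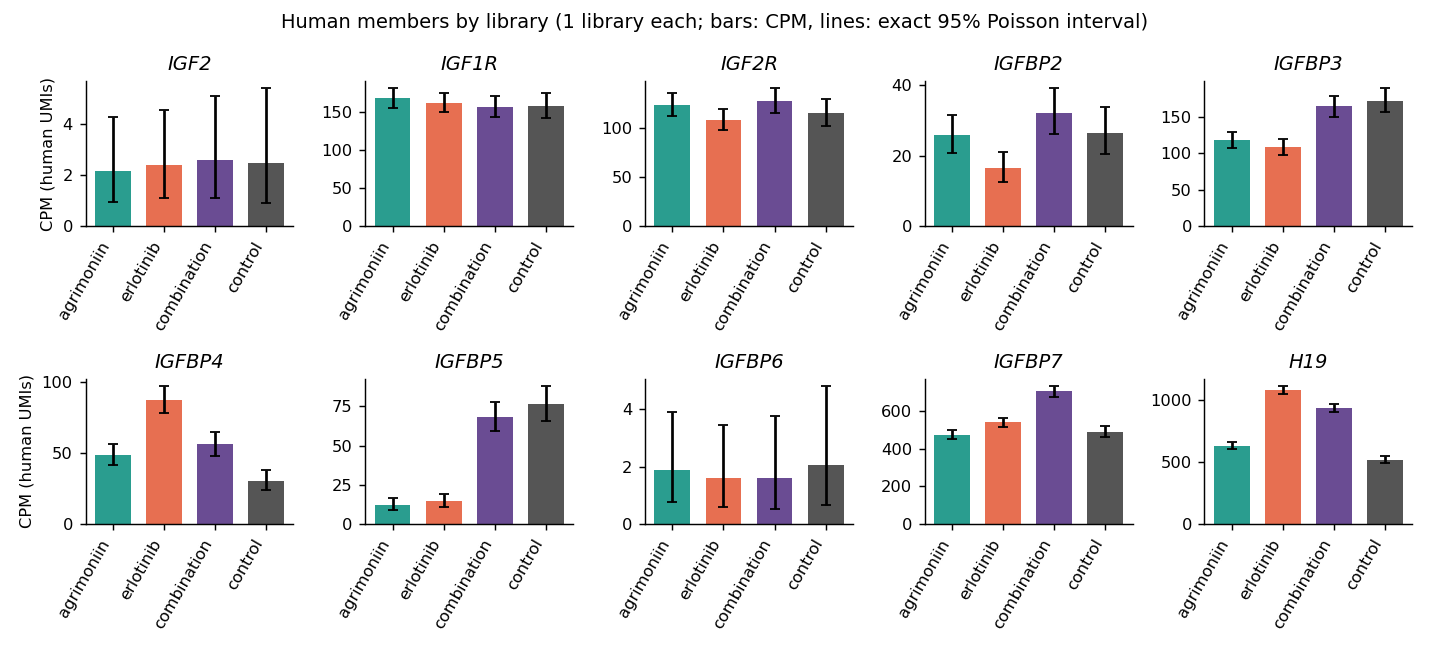
Level of each of the 10 human genes (vertical axis, CPM of human UMIs, each panel from 0) in the agrimoniin, erlotinib, combination and control libraries, with exact 95% Poisson intervals as lines. H19 and IGFBP4 are highest with erlotinib, and IGFBP7 is highest with the combination. IGFBP5 is low with agrimoniin and with erlotinib, and IGF1R and IGF2R are nearly level.

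Human ligand RNA was close to absent. IGF2 had 8 UMIs with agrimoniin, 9 with erlotinib, 8 with the combination and 6 in control, which is 2.17, 2.38, 2.57 and 2.48 CPM. The 95% intervals of all 4 overlap, the widest running from 0.910 to 5.395 CPM in control. IGF1, the other ligand, had 0 UMIs in all 4 libraries, where 3 UMIs would be 0.813, 0.795, 0.965 and 1.24 CPM in agrimoniin, erlotinib, combination and control. Human INS and IGFBP1 also had 0 UMIs in all 4. The antisense transcript IGF2-AS had 2, 2, 2 and 1 UMIs in agrimoniin, erlotinib, combination and control. At 6 to 9 UMIs per library, differences in IGF2 were not detectable at this depth, and its ratios to control had intervals from 0.266 to 3.63.

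The receptors were nearly level across the libraries. IGF1R, the signalling receptor, was at 168 CPM with agrimoniin, 162 with erlotinib, 157 with the combination and 158 in control. IGF2R was at 124 CPM with agrimoniin, 109 with erlotinib, 128 with the combination and 116 in control. All 6 ratios to control lay between 0.941 and 1.11, and each 95% interval held 1; the intervals cover counting error only and leave room for ratios from 0.806 to 1.29. Between treated libraries, IGF2R with the combination was 1.18 times its erlotinib level (1.02 to 1.35), an interval that excludes 1. IGF1R was found in 71.0% to 76.7% of human parts and IGF2R in 67.8% to 73.5%, so both were spread widely over the parts. No single barcode held more than 5.24% of the UMIs of either receptor in any library.

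IGFBP7, whose product binds IGFs weakly and is also known as an extracellular matrix protein, was highest with the combination. It was at 476 CPM with agrimoniin, 540.0 with erlotinib, 706 with the combination and 490.0 in control. The combination library stood above the other 3, with a ratio to control of 1.44 (95% interval 1.34 to 1.55), just inside the 1.5-fold line used here. Over the settings tried that ratio ran from 1.38 to 1.54. It was highest, and past the line, where human UMIs made up 75% or more of the barcode, at 698 against 452 CPM. With erlotinib the ratio was 1.10 (1.03 to 1.18), and with agrimoniin it was 0.971 (0.902 to 1.046). The share of human parts with an IGFBP7 UMI was 70.7%, 74.7%, 78.8% and 73.1% in agrimoniin, erlotinib, combination and control. After each part was thinned to 5000 UMIs these shares were 61.0%, 61.9%, 71.0% and 60.6%, again highest with the combination. Median IGFBP7 per part was 2.60, 3.17, 5.31 and 2.35 UMIs per 10000 in the same order, so the middle of the distribution was higher with the combination. The gene POLR2B overlaps IGFBP7 on the other strand. No source used here gives the strand setting of the counting, so reads from the pair may not be fully separated.

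IGFBP3, the main carrier of IGFs in blood plasma, was lower with either single drug. It was at 118 CPM with agrimoniin, 108 with erlotinib, 164 with the combination and 172 in control. The ratio to control was 0.686 (0.598 to 0.786) with agrimoniin and 0.627 (0.546 to 0.721) with erlotinib. With the combination it was 0.954 (0.836 to 1.09), an interval that holds 1. Its UMIs were found in 34.3%, 36.0%, 42.0% and 46.1% of parts in agrimoniin, erlotinib, combination and control. A single control barcode held 54 of the 417 control UMIs, and with the top barcode of the gene left out of each library the erlotinib ratio was 0.669, just short of a 1.5-fold difference.

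IGFBP2, a carrier often studied in tumours, was lowest with erlotinib. It was at 25.7 CPM with agrimoniin, 16.4 with erlotinib, 32.2 with the combination and 26.4 in control. The erlotinib ratio to control was 0.621 (0.431 to 0.895), from 62 UMIs with erlotinib against 64 in the shallower control library. The agrimoniin ratio of 0.973 (0.702 to 1.36) and the combination ratio of 1.22 (0.880 to 1.69) have intervals that hold 1. IGFBP6, which prefers IGF2 over IGF1, was near the floor with 7, 6, 5 and 5 UMIs, 1.90, 1.59, 1.61 and 2.07 CPM in agrimoniin, erlotinib, combination and control, and no order can be read from it.

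IGFBP4, which is known mainly as an inhibitor of IGF signalling until PAPPA cuts it, was higher in all 3 treated libraries. It was at 48.5 CPM with agrimoniin (95% interval 41.7 to 56.1), 87.7 with erlotinib (78.5 to 97.6), 56.3 with the combination (48.2 to 65.3) and 30.2 in control (23.6 to 37.9). Agrimoniin and combination, neighbours in this order, overlap in their intervals, while erlotinib lies above both and control below both. The ratio to control was 1.61 (1.22 to 2.14) with agrimoniin, 2.91 (2.25 to 3.80) with erlotinib and 1.87 (1.41 to 2.49) with the combination.

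Few parts carried most IGFBP4 UMIs. A UMI was found in 18.7%, 28.1%, 24.5% and 20.7% of human parts in agrimoniin, erlotinib, combination and control. After thinning to 5000 UMIs the shares were 10.99%, 17.2%, 15.1% and 10.9%, so the agrimoniin and control libraries had almost the same share of IGFBP4-positive parts. A single barcode held 43 of the 179 agrimoniin UMIs and 56 of the 331 erlotinib UMIs, while the highest part held 17 with the combination and 5 in control. With the 3 highest barcodes left out of each library, a setting chosen after the data were seen, the ratios were 1.09 with agrimoniin, 2.40 with erlotinib and 1.77 with the combination. With the deepest 10% of barcodes left out they were 1.15, 1.87 and 1.69 in the same order. The agrimoniin ratio was under 1.5 in 5 of the 9 other settings tried, the lowest being 1.09, whereas erlotinib and combination stayed past it in all 9. In parts with at most 10% mitochondrial UMIs the ratios were 2.49, 4.99 and 2.11 in that order.

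IGFBP5, a binding protein found in matrix and bone, showed the widest gap and rested on few parts. It was at 12.2 CPM with agrimoniin, 14.6 with erlotinib, 68.2 with the combination and 76.4 in control. The ratio to control was 0.160 (0.113 to 0.222) with agrimoniin and 0.191 (0.138 to 0.259) with erlotinib. With the combination it was 0.892 (0.729 to 1.09), so the combination library sat with control rather than with either single drug. All IGFBP5 UMIs came from 12 of 283, 9 of 292, 17 of 245 and 11 of 193 human parts, which is 4.24%, 3.08%, 6.94% and 5.70% in agrimoniin, erlotinib, combination and control. The exact 95% intervals of those 4 shares overlap, from 1.42% at the lowest bound to 10.9% at the highest. UMIs per positive part differed as well: the highest part held 14, 19, 53 and 49 UMIs in the same order, and at most 3 parts held most of the UMIs of each library. Without the 3 highest barcodes of each library the levels were 4.65, 5.08, 22.4 and 28.3 CPM, and the agrimoniin and erlotinib libraries were still the lower pair. The combination ratio depended on which barcodes were kept: it was 0.256 where human UMIs made up 75% or more of the barcode, and 1.26 as a mean over barcodes.

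H19 was higher in every treated library than in control, and most with erlotinib. It was at 632 CPM with agrimoniin (606 to 658), 1083 with erlotinib (1050.3 to 1117), 935 with the combination (901 to 969) and 520.1 in control (492 to 549.7). None of these 4 intervals overlap in the order erlotinib, combination, agrimoniin, control. They cover counting error only, not the spread between parts, and the places of agrimoniin and control changed with the barcodes kept. The ratio to control was 1.21 (1.13 to 1.30) with agrimoniin, 2.08 (1.95 to 2.22) with erlotinib and 1.80 (1.68 to 1.92) with the combination.

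H19 was found in 55.1%, 68.5%, 55.9% and 47.2% of human parts in agrimoniin, erlotinib, combination and control, but its amount per part was very uneven. The median was 0.690 UMIs per 10000 with agrimoniin, 1.26 with erlotinib, 0.756 with the combination and 0 in control, against maxima of 154, 243, 165 and 163. The top 10% of parts, rounded up, were 29, 30, 25 and 20 parts in agrimoniin, erlotinib, combination and control. They held 79.5% of H19 UMIs with agrimoniin, 70.8% with erlotinib, 78.1% with the combination and 79.5% in control. Parts with 10 or more H19 UMIs were 43 of 283, 72 of 292, 49 of 245 and 27 of 193, or 15.2%, 24.7%, 20% and 14.0% in the same order. After thinning to 5000 UMIs a UMI was found in 35.8%, 54.0%, 42.9% and 36.3% of parts, so agrimoniin and control were then level and erlotinib remained highest.

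**Figure D2:**
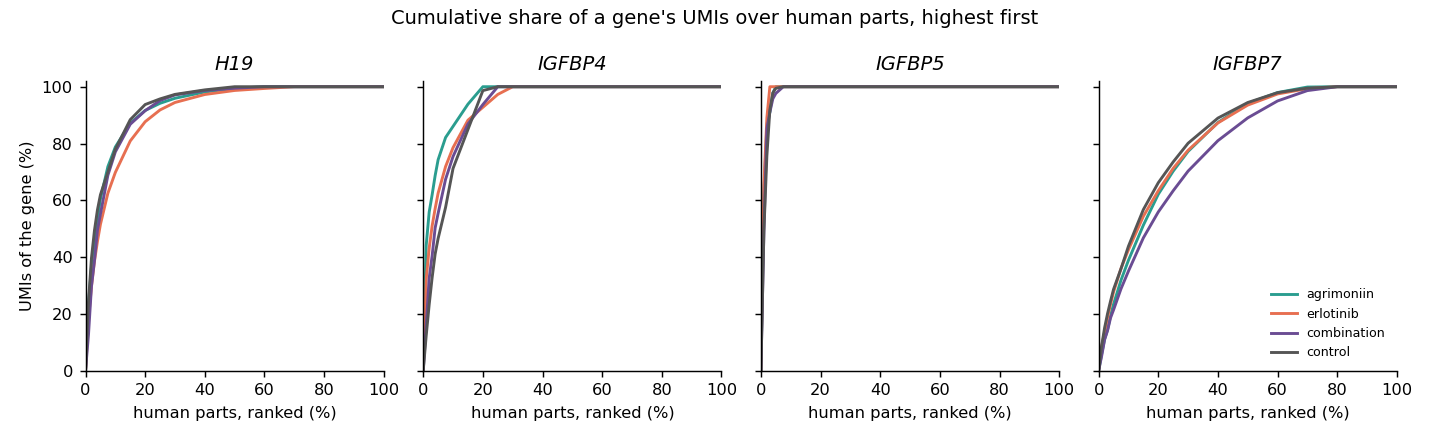
Cumulative share of the UMIs of H19, IGFBP4, IGFBP5 and IGFBP7 (vertical axis, percent) over human parts ranked from highest to lowest (horizontal axis, percent of parts), with a line for each library. IGFBP5 reaches its full count within under 10% of parts in every library. The top 10% of parts, rounded to the nearest part, hold 69.8% to 86.0% of H19 and IGFBP4 UMIs. For IGFBP7 they hold 35.1% to 43.8%.

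The H19 difference depended on which barcodes were summed. In parts with at most 10% mitochondrial UMIs it was at 413 CPM with agrimoniin, 1189 with erlotinib, 770.1 with the combination and 618 in control. The agrimoniin ratio was then 0.668, below 1, and the combination ratio was 1.25, while erlotinib stayed at 1.92. Where human UMIs made up 75% or more of a barcode, the levels were 548, 942, 739 and 649.7 CPM, with ratios of 0.843, 1.45 and 1.14 for agrimoniin, erlotinib and combination. Only 66 control parts met that limit, against 149 to 163 in the treated libraries, so its control value rests on few barcodes. With the 3 highest barcodes left out of each library the ratios were larger, at 1.40, 2.58 and 2.21 in the same order. Erlotinib was the highest library for H19 in every one of these settings, and agrimoniin was not above control in those that kept low-mitochondrial or mostly human barcodes. The part of the mitochondrial and human shares in the H19 result was not tested.

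**Figure D3:**
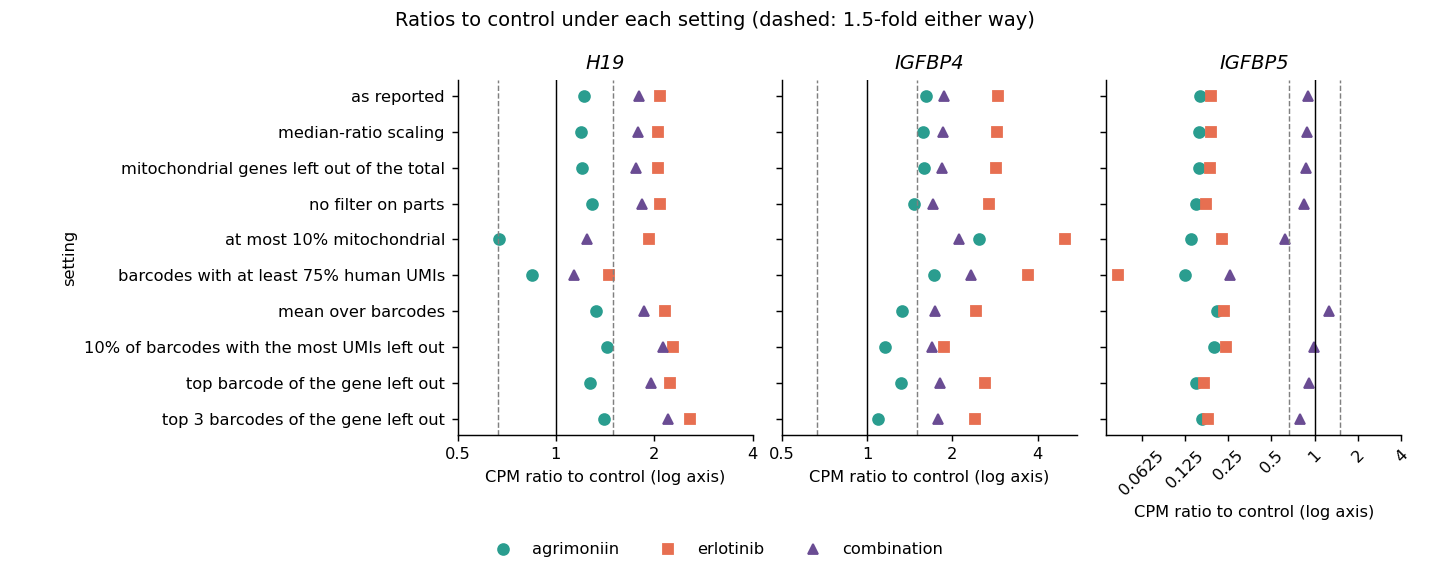
CPM ratio to control (horizontal log axis, 1.5-fold marked by dashed lines) of H19, IGFBP4 and IGFBP5 for agrimoniin, erlotinib and combination under each way of summing the barcodes (vertical axis). The agrimoniin ratio of H19 falls below 1 in 2 settings, erlotinib and combination keep IGFBP4 above 1.5 in all of them, and the highest IGFBP5 ratio of either single drug is 0.241.

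Over the 3 comparisons with control, 5 members were past 1.5-fold in at least 1: H19, IGFBP2, IGFBP3, IGFBP4 and IGFBP5. With a mean of at least 10 CPM over the 4 libraries, 8 of the 10 passed the minimum; IGF2 and IGFBP6 did not. With agrimoniin 1 member (IGFBP4) was at least 1.5-fold higher, against 3.34% of 9282 human genes, and 1 (IGFBP5) was at least 1.5-fold lower, against 1.93%. With erlotinib 2 were higher (H19 and IGFBP4), against 3.78%, and 3 were lower (IGFBP2, IGFBP3 and IGFBP5), against 2.75%. With the combination 2 were higher (H19 and IGFBP4), against 3.35%, and 0 were lower, against 2.78%. The members were chosen with these contrasts known, so nothing is read from those shares. The median log2 ratio (pseudocount of 10 CPM) of the 8 members was 0.03 with agrimoniin, -0.02 with erlotinib and 0.17 with the combination, beside 0.03, 0.02 and 0.02 over all 9282 genes. The 3 comparisons share the control library.

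**Figure D4:**
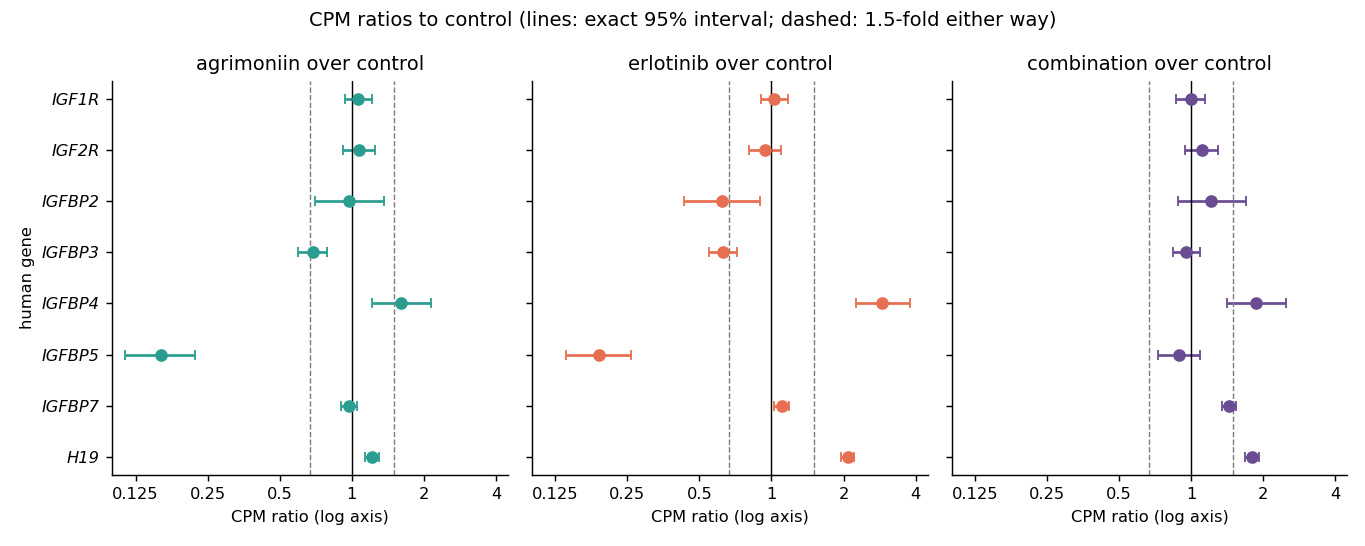
CPM ratio to control (horizontal log axis) of the 8 members that passed the minimum, for agrimoniin, erlotinib and combination, with exact 95% intervals and dashed lines at 1.5-fold either way. IGFBP5 stands far below 1 with each single drug and near 1 with the combination, while IGFBP4 is above 1 in all 3 panels.

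The combination library was also set against each single drug. IGFBP5 was 5.59 times as high with the combination as with agrimoniin (4.04 to 7.90) and 4.68 times as high as with erlotinib (3.46 to 6.42). Where human UMIs made up 75% or more of the barcode, IGFBP5 was at 24.9 CPM with the combination, 12.1 with agrimoniin and 4.14 with erlotinib, so the gap to agrimoniin was smaller there. Over agrimoniin it was the member past 1.5-fold, 1 higher against 1.64% of all genes and 0 lower against 2.12%; H19 at 1.48 (1.40 to 1.56) and IGFBP7 at 1.48 (1.39 to 1.58) came just short. Over erlotinib 3 members were past 1.5-fold higher, against 2.62%, namely IGFBP5, IGFBP2 at 1.96 (1.41 to 2.73) and IGFBP3 at 1.52 (1.33 to 1.74). In the other direction 1 was lower, against 2.28%, IGFBP4 at 0.642 (0.531 to 0.773). H19 was 0.863 times its erlotinib level with the combination (0.822 to 0.905). Erlotinib over agrimoniin gave 2 members past 1.5-fold higher, against 1.85%, IGFBP4 at 1.81 (1.502 to 2.18) and H19 at 1.71 (1.63 to 1.80), and 1 lower, against 2.4%, IGFBP2 at 0.638 (0.456 to 0.888). The labels give no dose, so whether doses matched between the single drugs and the combination is not known here.

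Within a library, members differed in which parts carried them. Over human parts, the mean of 4 within-library Pearson correlations of log(1 + UMIs per 10000) was computed for all 28 pairs of the 8 members; parts of a library share its depth and its cells, and correlations of sparse counts are low. The highest were 0.30 for IGFBP3 with IGFBP7 (0.24 to 0.38 over the 4 libraries), 0.27 for IGFBP2 with IGFBP5 (0.18 to 0.36) and 0.26 for IGFBP2 with IGFBP3 (0.12 to 0.42). The value for IGFBP5 rests on the 9 to 17 parts per library with a UMI of that gene. For H19 the mean was -0.18 with IGFBP3 (-0.26 to -0.13) and -0.16 with IGFBP2 (-0.21 to -0.09). H19 with IGFBP4 was at 0.11 and ranged from -0.07 to 0.22, so its sign differed between libraries.

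Genes most like H19 over parts, among 7172 with a mean of at least 20 CPM, were HACD2 at 0.37 (0.36 to 0.40), COL12A1 at 0.36 (0.28 to 0.44), MYL9 at 0.36 (0.28 to 0.40), IGSF10 at 0.36 (0.30 to 0.43) and DSP at 0.34 (0.30 to 0.40). HACD2 encodes an enzyme of long fatty acid synthesis, COL12A1 a collagen, MYL9 a myosin light chain and DSP the desmosome protein desmoplakin. For IGFBP4 they were THBS1 at 0.22 (0.12 to 0.31), COL1A1 at 0.21 (0.19 to 0.22) and LAMB1 at 0.21 (0.14 to 0.24), which encode secreted matrix proteins. Next came RAP1GAP2 at 0.20 (0.08 to 0.31) and ID3 at 0.19 (0.17 to 0.22). For IGFBP5, added after its spread was seen, they were GJA1 at 0.29 (0.21 to 0.32), IGFBP2 at 0.27 (0.18 to 0.36) and LAMP2 at 0.25 (0.18 to 0.39). Next came PLS3 at 0.23 (0.17 to 0.28) and TIMP1 at 0.22 (0.20 to 0.27). These values rest on few parts, as IGFBP5 had a UMI in 12, 9, 17 and 11 parts in agrimoniin, erlotinib, combination and control. By distance between the 3 log2 ratios to control, the nearest genes to H19 were EGR4 at 0.17, IGSF10 at 0.30, IGFBP4 at 0.37, HEY1 at 0.39 and ZNF90 at 0.40. The nearest to IGFBP4 were EGR4 at 0.31, H19 at 0.37, PLEKHH2 at 0.45, MYL9 at 0.51 and RCAN1 at 0.55. This distance rests on 3 values that share the control library.

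Of 20 other listed genes of the IGF axis 9 passed the minimum, and 0 were past 1.5-fold in either direction with agrimoniin, erlotinib or the combination; a count of 0 among 9 is near the all-gene shares of 1.93% to 3.78% in each direction. Their median log2 ratio was 0.10, 0.03 and 0.04 with agrimoniin, erlotinib and combination, beside 0.03, 0.02 and 0.02 over all genes. IRS2, an adaptor below the receptor, was at 99.2, 93.2, 108 and 134 CPM in agrimoniin, erlotinib, combination and control, the lowest ratio being 0.694 (0.595 to 0.810) with erlotinib. STC2, an inhibitor of the PAPPA protease, was at 96.7, 106, 90.7 and 74.0 CPM in the same order, with a ratio of 1.44 (1.20 to 1.73) with erlotinib. HTRA1, a secreted protease, was at 32.2, 20.4, 28.0 and 28.5 CPM, and its erlotinib ratio of 0.715 (0.510 to 1.005) just holds 1. The protease PAPPA, which did not pass the minimum, had 16, 24, 28 and 26 UMIs.

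No other listed imprinted gene that passed the minimum was 1.5-fold higher than control, and 0 among 14 is near the all-gene shares of 3.34% to 3.78%. Of 27 listed besides the members 14 passed the minimum, and in each comparison with control 0 were past 1.5-fold higher and 2 were lower, the noncoding RNAs MEG8 and KCNQ1OT1. Over all genes 3.34%, 3.78% and 3.35% were higher and 1.93%, 2.75% and 2.78% were lower with agrimoniin, erlotinib and combination. MEG8 was at 44.2, 45.8, 36.7 and 71.9 CPM in agrimoniin, erlotinib, combination and control. KCNQ1OT1, which lies in the imprinted cluster next to that of H19, was at 26.3, 25.4, 23.2 and 40.9 CPM in the same order. The list's median log2 ratio was -0.12 with agrimoniin, -0.04 with erlotinib and 0.07 with the combination. GRB10, an adaptor that binds IGF1R, had its lowest ratio with the combination, 0.670 (0.545 to 0.822), from 57.6 CPM against 85.9 in control.

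The listed imprint regulators, the TET genes among them, had median log2 ratios of -0.001 with agrimoniin, 0.09 with erlotinib and 0.16 with the combination. Of 12 listed 9 passed the minimum, and UHRF1, which brings DNMT1 to newly copied DNA, was the 1 past 1.5-fold, higher with erlotinib at 1.92 (1.26 to 3.01), against 3.78% of all genes. UHRF1 had 16.0, 23.8, 15.8 and 12.4 CPM in agrimoniin, erlotinib, combination and control. TRIM28, a corepressor that holds imprints, had 169.6, 151, 138 and 142 CPM in the same order, and ZNF445, a zinc finger protein of imprint maintenance, 16.0, 20.1, 23.8 and 16.5 CPM. CTCF, which binds the control region between H19 and IGF2, had ratios of 0.999 (0.795 to 1.26), 0.982 (0.782 to 1.24) and 0.985 (0.777 to 1.25).

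Downstream of the receptor, 19 of 20 listed genes of the PI3K-AKT-FOXO chain passed the minimum, with median log2 ratios of 0.02, -0.10 and -0.03 for agrimoniin, erlotinib and combination. In comparisons with control 1 was past 1.5-fold, PIK3R1, the regulatory subunit of PI3K, lower with erlotinib at 0.652 (0.499 to 0.853), from 30.5 CPM against 46.7, where 2.75% of all genes were lower. PIK3CB, a catalytic subunit, had ratios of 0.790, 0.7002 and 0.914 with agrimoniin, erlotinib and combination, and RPTOR, a partner of MTOR, had 0.880, 0.909 and 0.690. Among 14 genes known as FOXO targets 11 passed, and with agrimoniin 3 were past 1.5-fold lower, against 1.93% of all genes: the stress-response gene GADD45B at 0.629 (0.559 to 0.709), TXNIP, an inhibitor of thioredoxin, at 0.551 (0.346 to 0.874), and CDKN1B, the cell-cycle inhibitor p27, at 0.665 (0.471 to 0.939). With erlotinib and with the combination 0 of the 11 were past 1.5-fold. The median log2 ratio of this list was -0.22 with agrimoniin, -0.28 with erlotinib and -0.06 with the combination, and IRS2 belongs to it too.

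In the mouse RNA most UMIs of this family came from fibroblast-like parts. The 1053 mouse parts (297, 305, 249 and 202 in agrimoniin, erlotinib, combination and control) were clustered without the 12 genes, and clusters were named from markers. Fibroblast-like parts, 365 of the 1053, held 96.6% of mouse H19 UMIs, 96.6% of Igfbp4, 97.8% of Igfbp6, 92.1% of Igfbp5, 88.5% of Igf1, 85.3% of Igfbp7 and 83.2% of Igfbp3. Endothelial-like parts held a further 15.8% of Igfbp3, pericyte- or smooth-muscle-like parts 9.08% of Igfbp7, and macrophage-like parts 10.4% of Igf1. The receptor genes were less concentrated, with 74.1% of Igf1r and 69.5% of Igf2r UMIs in fibroblast-like parts. Fibroblast-like parts were also deeper, with medians of 3659 to 6229 mouse UMIs by library, against 2871 to 4017 in macrophage-like parts. A share of UMIs is thus not to be read against the share of parts alone. Mouse Igfbp1 had 0 UMIs in all 4 libraries, and mouse Igf2 had 0, 0, 7 and 6 UMIs in agrimoniin, erlotinib, combination and control.

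The ligand at 0 UMIs in the human parts was detected in the mouse RNA. Mouse Igf1 was at 125 CPM of mouse UMIs with agrimoniin, 126 with erlotinib, 64.1 with the combination and 97.4 in control. Over all mouse parts its ratio to control was 1.28 (1.003 to 1.64), 1.30 (1.02 to 1.66) and 0.659 (0.470 to 0.914), for agrimoniin, erlotinib and combination. The lowest mouse UMIs of a part were 2086, 1567, 1372 and 2590 in agrimoniin, erlotinib, combination and control; with 2590 as a common minimum the Igf1 ratios were 1.35 (1.06 to 1.74), 1.40 (1.09 to 1.79) and 0.731 (0.513 to 1.03), the last an interval that holds 1. Mouse parts hold several cell types in shares that differ between libraries: fibroblast-like parts were 32.3%, 29.2%, 37.3% and 43.1% of mouse parts in agrimoniin, erlotinib, combination and control.

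**Figure D5:**
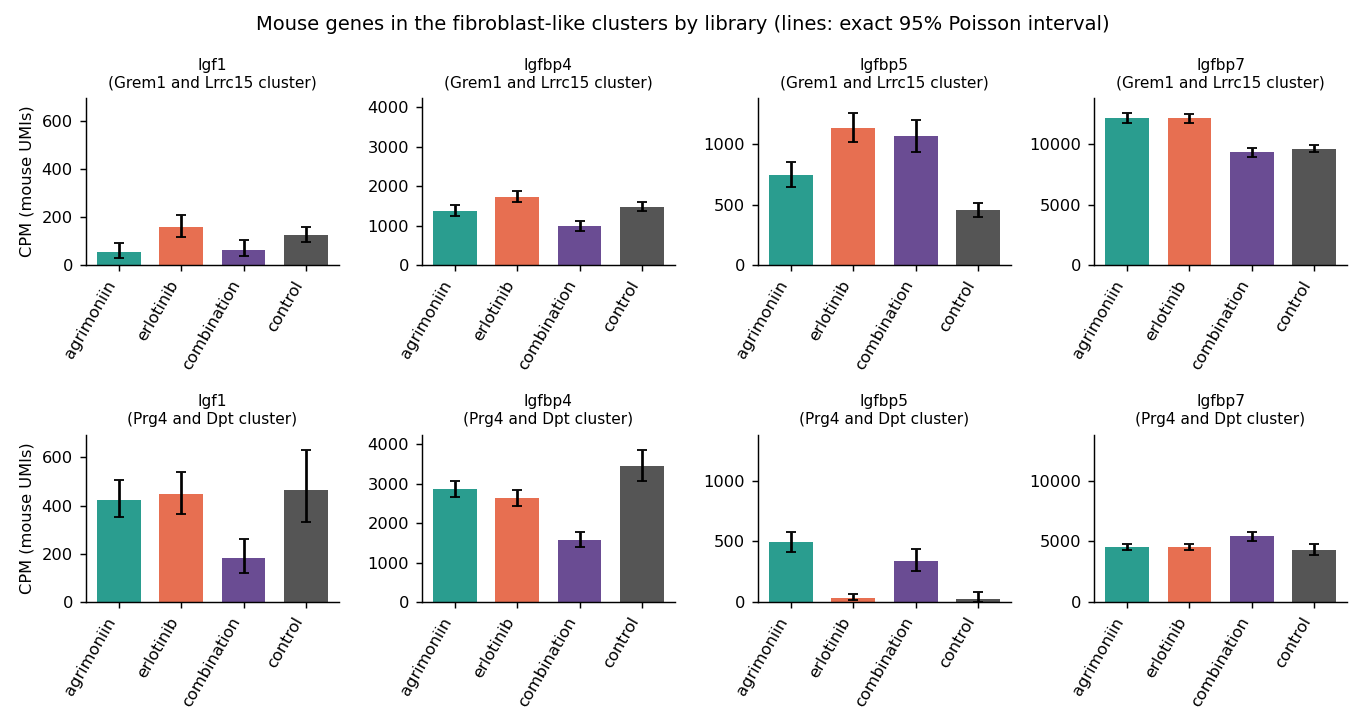
Level of mouse Igf1, Igfbp4, Igfbp5 and Igfbp7 (vertical axis, CPM of mouse UMIs, from 0) by library in the fibroblast-like cluster led by Grem1 and Lrrc15 (top row) and in that led by Prg4 and Dpt (bottom row), with exact 95% Poisson intervals. Igf1 and Igfbp4 are higher in the cluster led by Prg4 and Dpt and lowest there with the combination, and Igfbp7 is higher in the cluster led by Grem1 and Lrrc15.

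The fibroblast-like parts formed 2 clusters with different IGF genes. A cluster of 223 parts was led by genes such as Grem1 and Lrrc15, and a cluster of 142 parts by Prg4 and Dpt. Igf1 was at 386 CPM in the cluster led by Prg4 and Dpt (343 to 432), against 108 in that led by Grem1 and Lrrc15 (91.8 to 127). Igfbp4 was at 2587 against 1437 CPM and Igfbp6 at 159 against 40.8 CPM in the same order. H19 was at 19.1 against 156 CPM, Igfbp5 at 269 against 781 CPM and Igfbp7 at 4673 against 10646 CPM. The cluster led by Grem1 and Lrrc15 had 43, 53, 56 and 71 parts in agrimoniin, erlotinib, combination and control, and that led by Prg4 and Dpt had 53, 36, 37 and 16, so different clusters held most of the class in agrimoniin and in control.

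Values within a cluster therefore stand beside those of all fibroblast-like parts. Igf1 over all fibroblast-like parts had ratios to control of 1.45 (1.12 to 1.88) with agrimoniin, 1.62 (1.26 to 2.09) with erlotinib and 0.638 (0.440 to 0.912) with the combination. With classes from marker counts the combination ratio was 0.684 (0.425 to 1.08). Within the cluster led by Prg4 and Dpt the Igf1 ratios were 0.916 (0.637 to 1.34), 0.963 (0.664 to 1.42) and 0.390 (0.233 to 0.644). Within that led by Grem1 and Lrrc15 they were 0.444 (0.235 to 0.785), 1.25 (0.853 to 1.83) and 0.514 (0.278 to 0.898). The combination was thus below control for Igf1 in both clusters, while the agrimoniin ratio above 1 was in neither. Igfbp4 with the combination was also below control in both, at 0.456 (0.384 to 0.541) in the cluster led by Prg4 and Dpt and 0.672 (0.580 to 0.776) in the other. Only 16 control parts lay in the cluster led by Prg4 and Dpt, so its ratios rest on few barcodes.

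Mouse Igfbp5 was higher than control with both single drugs, where human IGFBP5 was lower; the difference between species was not tested. Over all mouse parts it was at 307 CPM with agrimoniin, 292 with erlotinib, 361 with the combination and 224 in control. It was found in 16.8%, 11.8%, 14.1% and 18.8% of mouse parts in the same order, the largest share in control. A single barcode held 19.7%, 30.7%, 15.9% and 26.4% of its UMIs. In fibroblast-like parts its ratios to control were 1.54 (1.31 to 1.83), 1.68 (1.43 to 1.98) and 1.96 (1.66 to 2.33), but with classes taken from marker counts per part the combination ratio was 0.806. In the cluster led by Grem1 and Lrrc15 they were 1.63, 2.49 and 2.33, and a single barcode held 40.5% of those UMIs with agrimoniin and 33.8% with erlotinib. In that led by Prg4 and Dpt, Igfbp5 was at 491, 33.4, 336 and 23.2 CPM in agrimoniin, erlotinib, combination and control. The control value there came from 2 UMIs. Mouse H19 was at 56.0, 21.0, 55.1 and 73.0 CPM in agrimoniin, erlotinib, combination and control, and 1 barcode held 34.7%, 69.0%, 75.5% and 29.8% of those UMIs in the same order. The UMIs came from 13, 6, 8 and 13 mouse parts.

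Of the 12 mouse genes 9 passed a mean of 10 CPM of mouse UMIs, all but Igf2, Igfbp1 and Igfbp2. With agrimoniin 1 of them was past 1.5-fold higher than control over all mouse parts, against 11.6% of 8779 mouse genes, Igfbp6 at 2.02 (1.36 to 3.06). Within the cluster led by Prg4 and Dpt that Igfbp6 ratio was 2.16 (1.11 to 4.69), with 10 control UMIs. Within that led by Grem1 and Lrrc15 it was 0.762 (0.328 to 1.63), an interval that holds 1. In the other direction 1 gene was lower with agrimoniin, against 11.1%, Igf2r at 0.514 (0.371 to 0.707). With erlotinib 0 were higher, against 13.4%, and 3 were lower, against 11.7%: H19 at 0.287 (0.181 to 0.443), Igf2r at 0.567 (0.415 to 0.771) and Igfbp3 at 0.496 (0.398 to 0.616). With the combination 1 was higher, against 11.6%, Igfbp5 at 1.61 (1.36 to 1.90). A further 3 were lower with the combination, against 12.4%: Igf1, Igfbp3 at 0.607 (0.478 to 0.767) and Igfbp4 at 0.597 (0.536 to 0.663). With the common minimum of 2590 mouse UMIs these 3 were short of 1.5-fold, at 0.731 for Igf1, 0.726 (0.568 to 0.921) for Igfbp3 and 0.686 (0.614 to 0.765) for Igfbp4, while Igf1r with agrimoniin came past it, at 0.663 (0.479 to 0.914). A single barcode held 31.4%, 27.2%, 36.4% and 35.1% of mouse Igfbp3 UMIs in agrimoniin, erlotinib, combination and control. In the cluster led by Grem1 and Lrrc15 the Igfbp3 ratio was 0.681 with erlotinib and 0.481 with the combination. In that led by Prg4 and Dpt, Igfbp3 was at 87.6, 349 and 23.2 CPM with erlotinib, combination and control. That control value came from 2 UMIs, and 1 barcode held 69.6% of the combination UMIs there. Counts in this cluster were thus too few to tell whether Igfbp3 was lower in it. Mouse Igfbp2 had 3, 3, 1 and 18 UMIs in agrimoniin, erlotinib, combination and control. Mouse counts are shallower, with 888914 to 1383630 UMIs per library, and a larger share of all mouse genes was past the fold than of human genes.

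Human levels were also read by the class of the mouse part in the same barcode. With the 4 libraries pooled, human IGFBP4 was at 53.0 CPM in barcodes whose mouse part was fibroblast-like, where mouse Igfbp4 was at 1855 CPM. It was at 52.8 CPM beside macrophage-like parts, where mouse Igfbp4 was at 45.4 CPM. By library, human IGFBP4 was at 68.0, 72.1, 44.0 and 24.8 CPM beside fibroblast-like parts in agrimoniin, erlotinib, combination and control. Beside macrophage-like parts it was at 29.9, 79.4, 67.8 and 28.7 CPM in the same order, so agrimoniin and control were nearly level there. Human IGFBP7, also pooled, was at 530.1 CPM beside fibroblast-like and 554 CPM beside macrophage-like parts, where mouse Igfbp7 was at 8473 and 73.0 CPM. Human IGF1 stayed at 0 UMIs in all barcodes, also in those with mouse Igf1.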

How the data were processed

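Single-cell RNA libraries of 4 PANC-1 tumour groups (1 library each, grouped by the treatment in the labels) were analysed. The authors deposited raw UMI counts for each gene in each barcode. They came from Cell Ranger on hg38 and mm10, per the submitters' processing notes, and no source used here gives its version or settings, or how barcodes were chosen. The deposited barcodes and features files hold names only. Barcodes had 27 bases, which is not the layout of the 10x kit named in the labels' protocols. The 10 members and all gene lists were chosen with earlier results of these data known.

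Each barcode was split into a human and a mouse part. Parts under 500 UMIs or 250 genes, or over 25% mitochondrial, were left out. Doublets were not called, because both species were present in every barcode. UMIs were summed per library and scaled to CPM. Ratios have exact 95% intervals conditional on the sum of both counts, levels have exact Poisson intervals and shares exact Clopper-Pearson intervals; all cover counting error only. A group of 1 library allows no test, and parts were not used as replicates. A gene was past the fold at 1.5 either way among genes with a mean of at least 10 CPM, and a count of 0 was read against a floor of 3 UMIs. Before a log2 ratio was taken, 10 CPM were added to both levels.

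All 10 members and 12 mouse genes were named, with 3 genes from each pathway list by the size of their log2 ratios to control, and the 5 genes most like H19 and IGFBP4. CTCF, PAPPA, CDKN1B and the genes most like IGFBP5 were named after their values were seen. Mouse parts were clustered with scanpy 1.11.5 (Leiden) without the 12 genes; clusters took a class from marker genes. Intervals used scipy 1.17.1, and the ratio code was tested on simulated counts. Alternatives were other filters on parts, another scaling, a mean over barcodes and leaving out barcodes. Positions are from GENCODE 29 and sequences from RefSeq.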

Additional observations from a re-analysis of the deposited data

Results flagged for a closer look

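In 6 comparisons with control, a human gene and its mouse counterpart lay on opposite sides of 1 with 95% counting intervals that exclude 1. The difference between species was not tested in any of them, and each value comes from 1 library over 1 library. With erlotinib, H19 had a CPM ratio to control of 2.08 in human parts and 0.287 in mouse parts, the mouse value from 29 UMIs, 20 of them in 1 barcode, against 84. With the combination, IGFBP4 had a ratio of 1.87 in human parts, against 0.597 for Igfbp4 in mouse parts. With agrimoniin, IGFBP5 had a ratio of 0.160 in human parts, against 1.37 for Igfbp5 in mouse parts. With erlotinib, IGFBP5 had a ratio of 0.191 in human parts, against 1.30 for Igfbp5 in mouse parts. Human IGFBP5 UMIs came from only 12, 9 and 11 parts in agrimoniin, erlotinib and control. A single barcode held 19.7%, 30.7% and 26.4% of mouse Igfbp5 UMIs in the same order. IGFBP7 had a ratio of 1.10 in human parts with erlotinib, against 0.714 for Igfbp7 in mouse parts. Within fibroblast-like mouse parts that Igfbp7 ratio was 1.001 (0.963 to 1.04), and it was 1.26 (1.21 to 1.31) in the cluster led by Grem1 and Lrrc15 and 1.05 (0.933 to 1.19) in that led by Prg4 and Dpt, so it was not below 1 there. With the combination the IGFBP7 ratio was 1.44 in human parts, against 0.776 for Igfbp7 in mouse parts. Within fibroblast-like mouse parts it was 0.876 (0.838 to 0.915), with 0.967 (0.920 to 1.02) in the cluster led by Grem1 and Lrrc15 and 1.26 (1.12 to 1.43) in that led by Prg4 and Dpt, so neither cluster lay below 1 with an interval that excludes 1. Fibroblast-like parts made up 29.2% of mouse parts with erlotinib and 37.3% with the combination, against 43.1% in control.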

How the results depend on the processing

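The ratios to control of H19 and IGFBP4 and the counts of members past 1.5-fold gave 108 alternative values, of which 75 stayed within the 95% interval (a count, within 1.5 times) and 33 moved beyond it. A value counts as reversed only where it was past 1.5-fold and changed direction, which 0 did; H19 with agrimoniin, at 1.21 short of that line, turned below 1 in 2 settings. The cause was not tested. In parts with at most 10% mitochondrial UMIs, H19 was 0.668 with agrimoniin, 1.92 with erlotinib and 1.25 with the combination, IGFBP4 was 2.49 with agrimoniin and 4.99 with erlotinib, and with the combination 1 member was higher and 1 lower. Where human UMIs made up 75% or more of a barcode, H19 was 0.843 with agrimoniin, 1.45 with erlotinib and 1.14 with the combination. In that setting 2 members were lower with agrimoniin, 1 was higher with erlotinib and 1 was lower with the combination. As a mean over barcodes H19 with agrimoniin was 1.32. Without the 10% of barcodes with the most UMIs, H19 was 1.43, 2.28 and 2.13 with agrimoniin, erlotinib and combination, IGFBP4 was 1.15 and 1.87 with agrimoniin and erlotinib, and 2 members were lower with agrimoniin. Without the top barcode of the gene, H19 was 2.24 with erlotinib and 1.95 with the combination. Without its top 3 barcodes, a setting chosen after seeing the data, H19 was 1.40, 2.58 and 2.21 with agrimoniin, erlotinib and combination, IGFBP4 was 1.09 with agrimoniin, and 1 member was lower with erlotinib. With no filter on parts 2 members were lower with agrimoniin. The count higher with agrimoniin was 0 with no filter, as a mean over barcodes, and without the deepest, top 1 or top 3 barcodes. Of 285 other values 225 stayed, 59 moved and 1 reversed: mouse Igfbp5 in fibroblast-like parts with the combination, 0.806 with classes from marker counts. With a common minimum of mouse UMIs, mouse Igf1, Igfbp3 and Igfbp4 with the combination were no longer 1.5-fold lower. Among the members, IGFBP5 with the combination ran from 0.256 to 1.26, and IGFBP7 with the combination from 1.38 to 1.54, past the 1.5-fold line at its highest. No paired analysis was possible because each group has 1 library, and leaving out a library was not possible either. Depth limits IGF2 and IGFBP6, at 5 to 9 UMIs per library.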

Other observations

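Human H19 was also read by the class of the mouse part in the same barcode. Beside fibroblast-like mouse parts it was at 585 CPM with agrimoniin, 852 with erlotinib, 1204 with the combination and 342 in control. Beside macrophage-like parts it was at 633, 1043, 1016 and 659 CPM in the same order. Beside monocyte-like parts it was at 1021, 1183, 201 and 1033 CPM, from 35, 61, 37 and 19 human parts. The library with the highest H19 thus differed between these groups of barcodes, which are descriptions of few parts each.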
